A study of Mus musculus with 35 samples.

Results

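Microglia of late disease were compared with microglia of wild-type (WT) littermates without doxycycline, 12 of the 35 libraries of a mouse spinal cord RNA-seq series. The 12 libraries were chosen by the phenotype, genotype and doxycycline schedule given in the sample labels, not by any measured value. Late disease comprised 7 rNLS8 mice, 4 males and 3 females, taken after 6 weeks without doxycycline. The WT group comprised 5 littermates that carried neither transgene, 2 males and 3 females, of which Controls 10 to 13 had been without doxycycline for 2 weeks and Control 14 for 6 weeks. All mice were on a mixed C57BL/6J and C3HeJ background and had been kept on doxycycline until 8 to 12 weeks of age. In rNLS8 mice the NEFH promoter, which is active in neurons and not in microglia, drives the tTA activator, which switches on a human TDP-43 transgene without a nuclear import sequence once doxycycline is withdrawn. The comparison asked what differed in microglia when neurons had been free to express cytoplasmic TDP-43 for 6 weeks.

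Microglia are the resident macrophages of the central nervous system and survey the tissue through receptors such as P2RY12 and CX3CR1. Near dying neurons, amyloid or damaged myelin they are known to lower these genes and to raise a disease-associated set that includes lipid carriers, phagocytic receptors and secreted factors, with the lipid receptor TREM2 and its ligand apolipoprotein E at its centre. Inflammatory signalling through NF-kB and interferon can add chemokines and antigen presentation to this state.

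Live CD11b- and CD45-positive cells had been sorted from whole spinal cord. Totals of the 12 libraries ran from 15.08 M to 17.88 M expected counts (M, mega). Expression is given in CPM, counts per M of the TMM-scaled total, and differences as log2 fold changes of late disease over WT. The log2 change of Itgam, the gene of CD11b, was −0.10 ± 0.13 (SE; adjusted p = 0.806 by edgeR), and that of Ptprc, the gene of CD45, was 0.25 ± 0.12 (adjusted p = 0.308). For Tardbp, which encodes mouse TDP-43, it was 0.15 ± 0.25 (adjusted p = 0.844), and its level in sorted microglia does not check a human transgene expressed in neurons. Markers of neurons summed to 0.617 to 3.24 CPM in late disease and 0.540 to 1.70 CPM in WT.

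Several libraries stood apart. Late disease 6 had the lowest homeostatic and the highest ribosomal levels of all 12 libraries, and was the highest late library for 69 of the 108 genes called higher below and the lowest for 47 of the 79 called lower. Late disease 1, the only late library of date code 1019, lay nearest to WT in its disease-associated genes. Control 11 had 11.4% of its TPM total outside the deposited table, where the late libraries had 3.71 ± 0.77% and the WT libraries 6.38 ± 3.17% (SD, n = 7 and 5; p = 0.0455, exact permutation test, two-sided). Genes with any count numbered 16595.6 ± 554.7 in late disease and 16012.4 ± 315.5 in WT (p = 0.0631, exact permutation test).

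Date codes were unevenly spread. Late disease had 1 library of code 1019, 3 of code 1102 and 3 of code 1130, and WT had 4 of code 1019 and 1 of code 1102. In late disease the 3 libraries of code 1102 were the 3 females and the other 4 were males, so sex and date cannot be told apart there. Likewise 4 of the 5 WT mice differed from late disease in weeks without doxycycline as well as in genotype. All mice started at 8 to 12 weeks of age, so age would move with the weeks without doxycycline. Ages of single mice are not given. These limits hold for every result that follows.

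**Figure D1:**
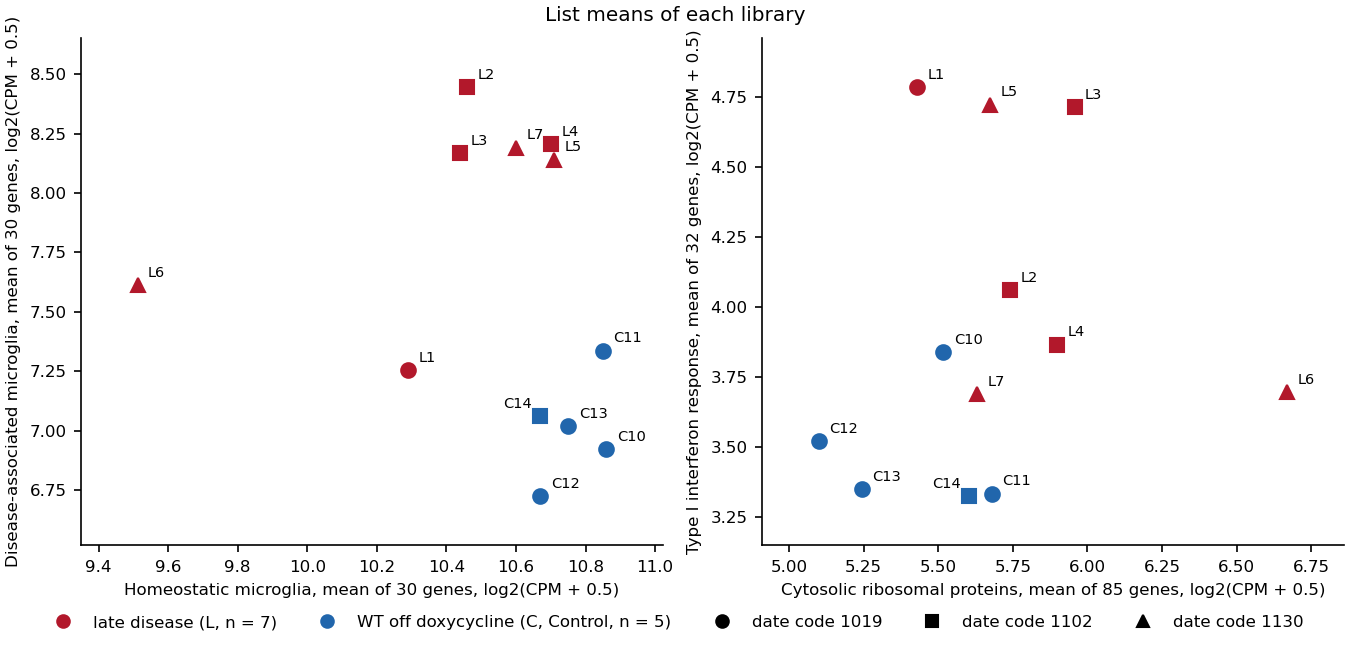
Mean log2(CPM + 0.5) of list members in each of the 12 libraries. The left panel sets 30 disease-associated genes (y axis) against 30 homeostatic genes (x axis), and the right panel sets 32 interferon genes against 85 ribosomal protein genes. Late libraries are red and WT libraries blue, and the shape gives the date code. Late disease 6 (L6) lies far to the left in the first panel and far to the right in the second, and late disease 1 (L1) lies within the WT range of the disease-associated mean.

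Of 14514 genes tested, 187 (1.29%) were called at an adjusted p under 0.05 by edgeR's quasi-likelihood test, fitted over all 35 libraries with group and sex as terms and adjusted over all genes. Expression was higher in late disease for 108 of them (0.744%) and lower for 79 (0.544%). Genes that rose moved further than genes that fell, with a median log2 change of 1.01 among the higher and −0.58 among the lower, and 54 rose but only 5 fell by at least 2-fold. The median over all tested genes was 0.03. Without a call rule, 97 genes (0.668%) had all 7 late CPM values above the 5 WT values and 115 (0.792%) had all below. Of the called genes, 40 higher and 43 lower ones were separated in this way. On log2(TPM + 1) values with limma the split was 206 higher (1.53% of genes) and 39 lower (0.290%), and DESeq2 called 343 higher (2.36%) and 186 lower (1.28%).

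The number of calls moved with single libraries. Leaving out each of the 12 in turn gave 78 calls without late disease 3, 85 without Control 11, 94 without Control 12, 106 without Control 10, 109 without Control 13, 291 without late disease 1 and 288 without late disease 7. A core of 45 genes, 33 higher and 12 lower, was called in all 12 such fits, and most genes described below with their values in each library come from it. Without late disease 6 there were 126 calls, 114 of them among the 187. The 12 libraries fitted alone gave 6 calls (0.0476% of genes), all higher, namely Csf1, Axl, Cd74, Spp1, Myo5a and C3.

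**Figure D2:**
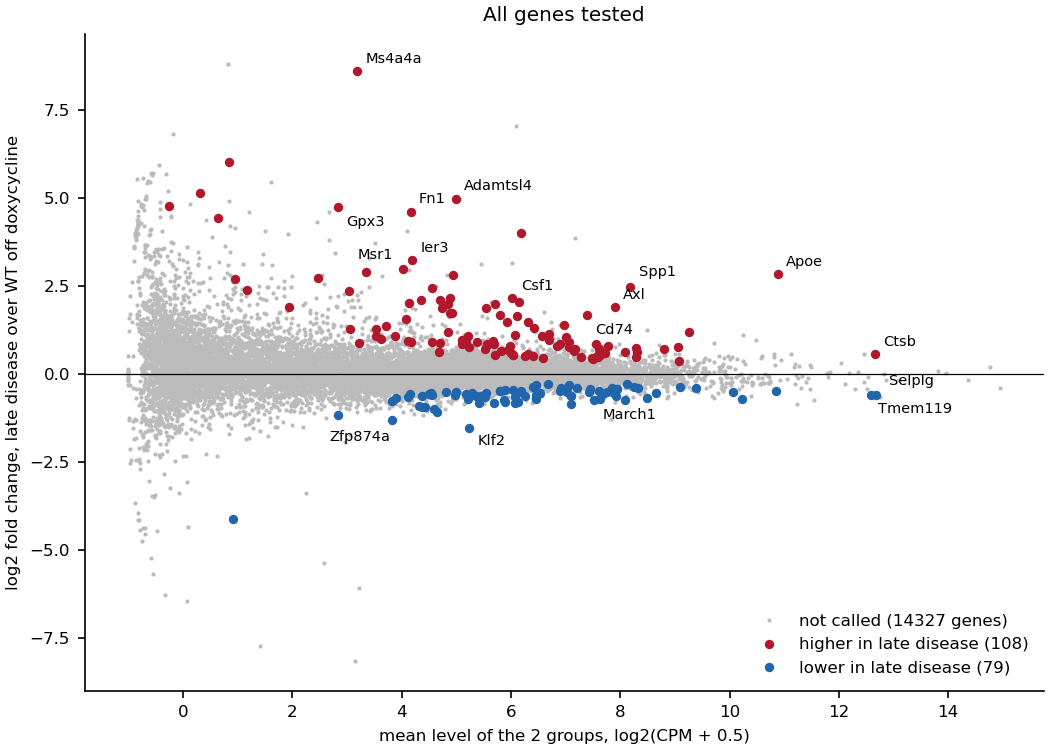
Log2 fold change of late disease over WT (y axis) against the mean level of both groups as log2(CPM + 0.5) (x axis) for the 14514 genes tested. Red points are the 108 genes called higher, blue points the 79 called lower and grey points the rest. The lower calls lie close to the zero line, with a median of −0.58, and the higher calls spread further, with a median of 1.01. Ms4a4a and Adamtsl4 at the top stood at 118 and 411 CPM in late disease 6 and at no more than 0.715 and 5.14 CPM in any other late library.

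Genes of the disease-associated state rose in part. Of its 30 listed genes, all tested, 11 rose and 0 fell, against 0.744% and 0.544% of all genes, and the list's median log2 change was 1.03. The count was 7 without late disease 6, 5 against WT of 2 weeks alone, 3 with date as a term, 3 with the 12 libraries alone, 15 by DESeq2 and 12 by limma. In the same order these fits called 0.47%, 0.452%, 0.0827%, 0.0476%, 2.36% and 1.53% of all genes higher. The 11 were Csf1, Axl, Apoe, Spp1, Lgals3, Ctsb, Hif1a, Ank, Cd63, Cybb and Cst7, and for 7 members the 7 late values all exceeded the 5 WT values (0.668% of all genes). The list had also been examined in an earlier account of these libraries and is not independent of it. All lists of this report were chosen with earlier results of these data known. The shares of all genes beside their counts are descriptions and not tests. Some genes stand in more than 1 list, so counts of different lists are not independent of each other.

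Csf1 (ENSMUSG00000014599.8, chromosome 3, 107741048 to 107760469 on mm10) encodes a growth factor of microglia themselves and had the smallest adjusted p of all genes. It ran from 53.1 to 140 CPM in late disease with a median of 112, and stood at 23.3, 13.6, 22.3, 36.2 and 28.5 CPM in Controls 10 to 14. The lowest late library, late disease 1, lay above the highest WT library. The log2 change was 2.14 ± 0.30 (SE; adjusted p = 0.000387 by edgeR), a 4.42-fold difference.

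Axl (ENSMUSG00000002602.14, chromosome 7, 25757273 to 25788705), a receptor tyrosine kinase for apoptotic cells, ran from 208 to 562 CPM in late disease with a median of 364, and stood at 116, 87.0, 93.0, 137 and 89.1 CPM in Controls 10 to 14. Again no late library reached down to the WT range. Its log2 change was 1.90 ± 0.35 (adjusted p = 0.00621 by edgeR).

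Apoe (ENSMUSG00000002985.13, chromosome 7, 19696109 to 19699188), the apolipoprotein that loads lipids and binds TREM2, ran from 684 CPM in late disease 1 to 10992 CPM in late disease 6, with a median of 2449 CPM. Controls 10 to 14 had 205, 1092, 342, 413 and 221 CPM. Control 11 exceeded late disease 1, and the other 4 WT libraries lay below every late library. The log2 change of 2.83 ± 0.56 (adjusted p = 0.00806 by edgeR) became 2.15 without late disease 6, with an adjusted p of 0.0200.

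Spp1, which encodes the secreted matrix protein osteopontin, ran from 220 to 1022 CPM in late disease (median 402), against 95.6, 97.5, 68.0, 66.8 and 115 CPM in Controls 10 to 14, without overlap. It rose by 2.47 ± 0.55 (adjusted p = 0.0185 by edgeR), a call that ended without Control 12 or Control 13, where the adjusted p reached at most 0.0549. Lgals3, encoding the phagocytic lectin galectin-3, ran from 12.2 to 42.8 CPM (median 30.0) against 2.12, 9.07, 6.75, 11.9 and 5.53 CPM, with late disease 1 only just above Control 13. Its rise of 2.01 ± 0.45 (adjusted p = 0.0189 by edgeR) ended without Control 10, 12 or 14.

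The changes of Ctsb and Hif1a were smaller and their calls ended in more fits. Ctsb, a lysosomal protease gene, rose by 0.57 ± 0.13 to 7764 ± 1597 CPM in late disease, against 5233 ± 1063 CPM in WT (SD, n = 7 and 5), with overlapping groups. Hif1a, the oxygen-sensing transcription factor, rose by 0.50 ± 0.12, and its adjusted p was 0.0266, against 0.0245 for Ctsb, both by edgeR. Leaving out late disease 2, 3 or 6, or Control 12 or 14, ended both calls, as did Control 10 for Ctsb and late disease 4 or Control 13 for Hif1a. Trem2 itself differed by −0.23 ± 0.15 (adjusted p = 0.498). Itgax, a phagocytic integrin, had a change of 1.64 ± 0.44 (adjusted p = 0.0508 by edgeR) and Clec7a, a glucan receptor, one of 1.48 ± 0.48 (adjusted p = 0.106). In late disease 6 Itgax stood at 5.49 CPM, below all 5 WT libraries, while the 6 other late libraries ran from 37.0 to 112 CPM. Itgax and Clec7a were chosen after their values were seen.

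**Figure D3:**
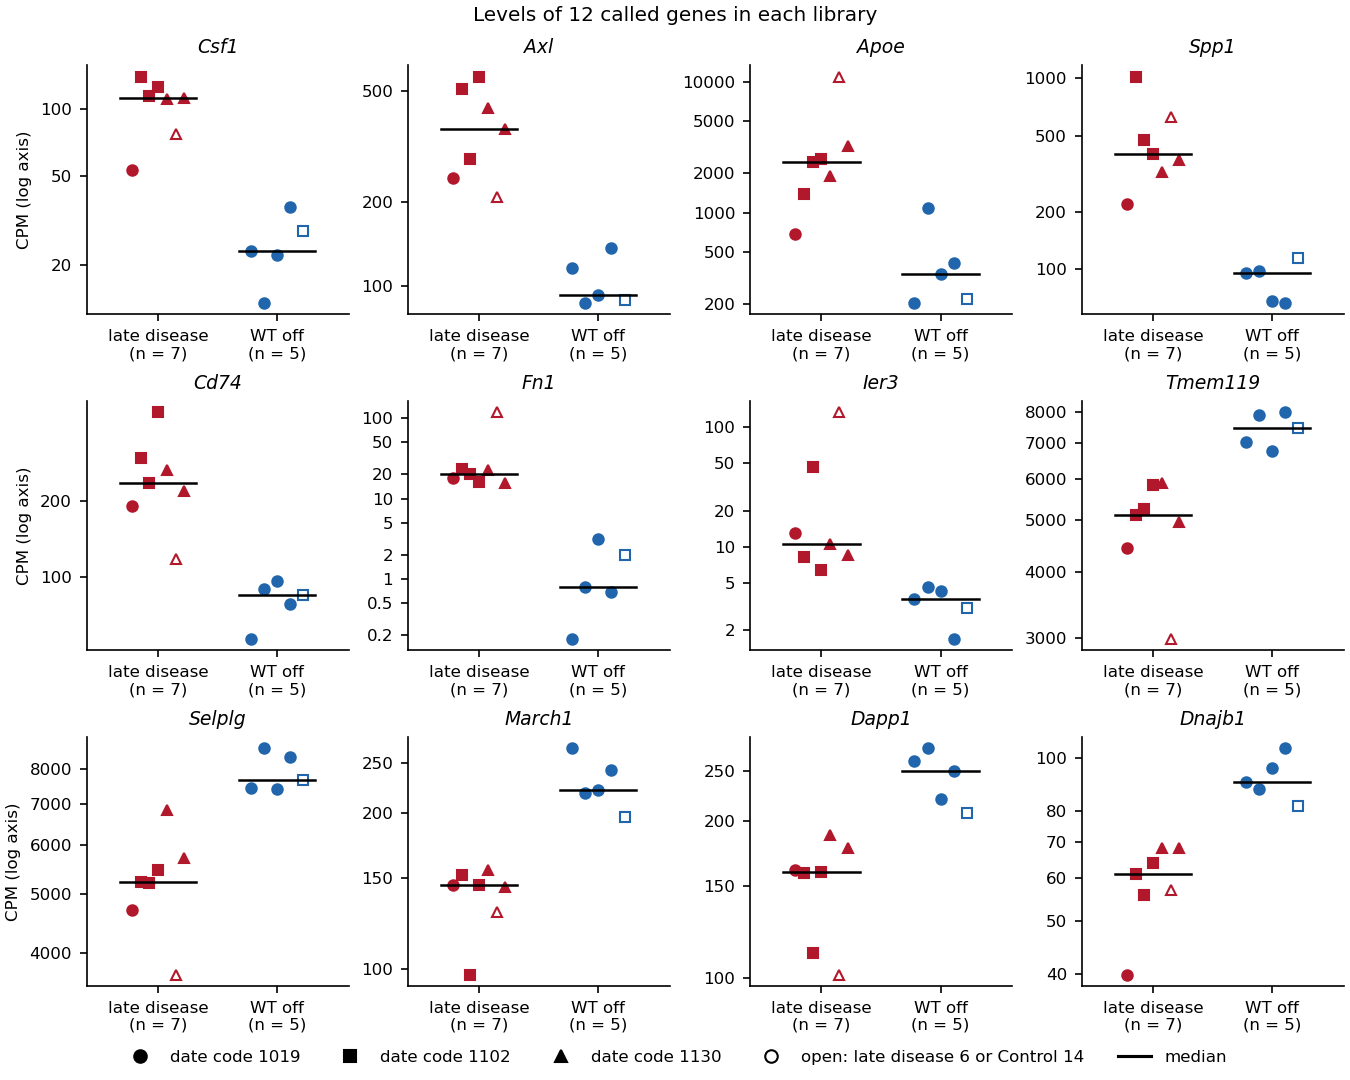
CPM on log axes for 12 called genes, with 1 point for each library, late disease in red on the left and WT in blue on the right. Shapes give the date code, open symbols mark late disease 6 and Control 14, and black lines are medians. Csf1, Axl, Spp1, Cd74, Fn1 and Ier3 are separated upward and Tmem119, Selplg, March1, Dapp1 and Dnajb1 downward, while Apoe overlaps through Control 11.

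Promoter sequence was read for called genes of the inflammatory pathways because sites for NF-kB, a factor that many inflammatory genes share, were 1 of 3 motifs searched for. The windows cover 250 bases before to 50 bases after the annotated start of the gene, taken from RefSeq on GRCm38.p6, and matches were sought on both strands. Among 78 genes called higher with a window, 12.8% held an NF-kB match, against 1.64% of 61 genes called lower, 6.06% of 10126 genes tested and 5.14% of all 27025 genes. The interferon element, GAAA and GAAA with NN between, was present in 63.6% of 22 interferon genes, 6.41% of the genes called higher, 4.92% of those called lower and 3.97% of genes tested. The heat-shock element, GAA, TTC and GAA with NN between neighbours, was found in 30% of 10 heat-shock genes, 0% of the higher, 1.64% of the lower and 0.543% of genes tested. A match is a description of letters and not of binding. The windows below are of genes among the 10 called higher that held an NF-kB match. None of the called chemokines Ccl3, Ccl4, Ccl5 and Cxcl9 was among these 10. Windows of 3 genes that rose are given 5′ to 3′ along the gene, with NF-kB matches in capitals: Csf1 at chr3:107760420-107760719 (minus strand, match beginning 154 bases before the start), Ier3 at chr17:35821463-35821762 (plus strand, 92 bases before) and Tlr2 at chr3:83841559-83841858 (minus strand, overlapping matches 173 and 172 bases before and a further one 8 bases before).
Csf1: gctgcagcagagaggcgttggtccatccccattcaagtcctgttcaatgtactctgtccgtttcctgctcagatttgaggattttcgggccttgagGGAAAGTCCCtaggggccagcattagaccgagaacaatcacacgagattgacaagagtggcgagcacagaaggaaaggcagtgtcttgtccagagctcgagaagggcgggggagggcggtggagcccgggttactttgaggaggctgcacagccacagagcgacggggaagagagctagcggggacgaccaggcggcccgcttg
Ier3: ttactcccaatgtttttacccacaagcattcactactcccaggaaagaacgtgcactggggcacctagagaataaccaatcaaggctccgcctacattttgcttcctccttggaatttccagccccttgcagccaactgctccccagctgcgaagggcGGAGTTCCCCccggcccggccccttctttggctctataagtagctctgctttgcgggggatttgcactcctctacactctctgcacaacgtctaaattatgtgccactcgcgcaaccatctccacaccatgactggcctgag
Tlr2: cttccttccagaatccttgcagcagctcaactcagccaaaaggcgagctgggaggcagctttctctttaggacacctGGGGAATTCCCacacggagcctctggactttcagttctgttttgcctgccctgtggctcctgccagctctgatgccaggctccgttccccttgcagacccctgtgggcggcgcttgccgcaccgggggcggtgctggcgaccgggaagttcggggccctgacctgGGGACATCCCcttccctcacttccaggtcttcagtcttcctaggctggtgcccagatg

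Few homeostatic genes fell, and by less. Of 30 listed genes, all tested, 0 rose and 3 fell (0.744% and 0.544% of all genes), namely Selplg, Tmem119 and Siglech. The log2 change was negative in 26 of the 30, beside 6684 of all 14514 genes. The list's median was −0.35, and −0.24 without late disease 6, where 4 were called lower (0.401% of all genes). With date as a term or with the 12 libraries alone 0 of the 30 were called, and 0 of all genes were called lower. At an unadjusted p under 0.05, 15 of the 30 were lower and 0 higher, against 7.01% and 7.96% of all genes.

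Tmem119 (ENSMUSG00000054675.5, chromosome 5, 113793729 to 113800516), a membrane protein that marks microglia, ran from 2987 CPM in late disease 6 to 5881 CPM, with a median of 5117 CPM. Controls 10 to 14 had 7036, 7910, 6773, 8001 and 7491 CPM, all above every late library. It fell by 0.58 on the log2 scale (SE 0.11; adjusted p = 0.00621 by edgeR). Selplg (ENSMUSG00000048163.11), the selectin ligand PSGL-1, ran from 3691 to 6866 CPM (median 5221), against 7442, 8641, 7425, 8373 and 7677 CPM, also without overlap. It fell by 0.60 (SE 0.11; adjusted p = 0.00550 by edgeR). Both calls remained in each of the 12 fits that left out a library.

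Siglech, a lectin receptor, fell by 0.48 (SE 0.11) to 1552 ± 233 CPM in late disease, against 2142 ± 481 CPM in WT. Its adjusted p of 0.0200 by edgeR was lost without Control 10 or Control 11 and reached 0.122. P2ry12, the receptor for ATP and ADP, ran from 1687 CPM in late disease 6 to 6495 CPM (median 6066), against 9298, 10721, 7502, 6223 and 8625 CPM in Controls 10 to 14. The groups overlapped at Control 13. The difference of −0.65 ± 0.19 had an adjusted p of 0.0734 by edgeR, was called without late disease 6 at −0.50 (adjusted p = 0.0387), and was called by DESeq2 at −0.63 (adjusted p = 0.0289). Cx3cr1, the fractalkine receptor, differed by −0.43 ± 0.20 (adjusted p = 0.281), with 1156 CPM in late disease 6 and 5073 to 6828 CPM in the 6 other late libraries, against 5760 to 7946 CPM in WT. In bulk RNA, fewer cells of a type and less RNA per cell cannot be told apart.

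Some chemokine ligands rose. Of 20 listed ligands 16 were tested, 4 rose and 0 fell (0.744% and 0.544% of all genes), 6 had all late values above all WT values (0.668% of all genes), and the median was 1.42. The count of 4 was 2 against WT of 2 weeks alone and 0 with date as a term or with the 12 libraries alone (0.452%, 0.0827% and 0.0476% of all genes). Ccl5, which attracts T cells and monocytes, ran from 2.86 to 19.5 CPM in late disease (median 8.62), against 2.18, 0.852, 1.24, 1.51 and 0.841 CPM in WT, without overlap. It rose by 2.73 ± 0.57 (adjusted p = 0.0115 by edgeR) and stayed called in all 12 fits. Ccl3, a chemokine that attracts macrophages, rose by 2.00 ± 0.45 (adjusted p = 0.0187) to 83.1 ± 38.4 CPM in late disease, against 20.9 ± 11.3 CPM in WT (SD, n = 7 and 5), and late disease 6 at 27.3 CPM and late disease 1 at 38.5 CPM lay below Control 11 at 39.4 CPM. Its call ended without Control 10, 12 or 13. Ccl4, its close relative, rose by 1.66 ± 0.44 (adjusted p = 0.0494), a call lost without any of Controls 10, 12, 13 and 14 or late disease 2, 3, 4, 5 and 7. Cxcl9, induced by interferon gamma, had 239 counts in the late libraries and 6 in WT and was called at an adjusted p of 0.0483, which was lost without any of the 5 WT libraries or late disease 3, 4 or 5.

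The interferon response had 0 of 32 listed genes called by edgeR in either direction, and 13 higher and 0 lower at an unadjusted p under 0.05 (7.96% and 7.01% of all genes). Changes were positive in 30 of the 32, beside 7830 of all 14514 genes, and the list's median was 0.80. DESeq2 and limma each called 3 of the 32 higher (2.36% and 1.53% of all genes). Late disease 1, 3 and 5, each of a different date code, had the highest interferon means, and late disease 6 and 7 lay within the WT range in the plot of list means. Cxcl10, a T cell chemokine chosen after its values were seen, ran from 7.54 to 20.8 CPM in late disease (median 18.4), against 4.17, 0.487, 7.37, 0.441 and 2.46 CPM in WT. The groups were separated, narrowly at Control 12, and the change was 2.33 ± 0.79 (adjusted p = 0.124 by edgeR and 0.0487 by DESeq2). Ifitm3, an antiviral membrane protein chosen in the same way, differed by 1.65 ± 0.48 (adjusted p = 0.0744 by edgeR and 0.0191 by DESeq2).

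Genes of antigen presentation changed in part. Of 12 MHC class II genes 2 rose and 0 fell (0.744% and 0.544% of all genes), with a median of 0.11. Cd74, the invariant chain that escorts class II molecules, ran from 118 CPM in late disease 6 to 447 CPM (median 235), against 56.9, 89.8, 96.3, 78.1 and 84.8 CPM in WT, without overlap. It rose by 1.67 ± 0.33 (adjusted p = 0.00806 by edgeR) in all 12 fits. H2-Aa, the class II alpha chain, had 0.834 CPM in late disease 6 and 9.09 to 34.0 CPM in the 6 other late libraries, against 0.363, 4.02, 2.93, 0.630 and 3.48 CPM in WT. Its rise of 2.89 ± 0.70 (adjusted p = 0.0315) was lost without late disease 3 or 4 or Control 10, 12, 13 or 14. March1 (ENSMUSG00000036469.14, chromosome 8, 65617900 to 66471637), a ubiquitin ligase that sends class II molecules and CD86 to degradation, moved the other way. Its levels were 97.6 to 156 CPM in late disease (median 145), against 267, 219, 222, 242 and 197 CPM in WT, all above the late range, and it fell by 0.74 (SE 0.13; adjusted p = 0.00550 by edgeR) in all 12 fits. Of 19 class I genes H2-Q6 alone rose, by 2.17 ± 0.56 (adjusted p = 0.0457). It has near-identical relatives among which reads are shared by estimation, and its call was lost without late disease 1, 2, 3 or 6 or any WT library.

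Among 25 tested cytokine and NF-kB genes 1 rose and 0 fell (0.744% and 0.544% of all genes), with a median of 0.37. This was Tlr2, the receptor for bacterial lipoproteins, with a change of 0.71 ± 0.18 (adjusted p = 0.0427 by edgeR) that was lost without late disease 2, 3, 4, 5 or 6 or Control 10, 12, 13 or 14. Scimp, an adaptor protein of antigen-presenting cells outside the lists, rose by 1.28 ± 0.26 (adjusted p = 0.00825) to 15.6 ± 4.63 CPM in late disease, against 6.54 ± 0.511 CPM in WT, without overlap and in all 12 fits. Complement genes had 0 of 16 called by edgeR, and 6 higher and 0 lower at an unadjusted p under 0.05 (7.96% and 7.01% of all genes). DESeq2 called 2 of them higher and limma 2 (2.36% and 1.53% of all genes). C3, the central complement component, chosen after its values were seen, ran from 8.37 to 11.1 CPM in late disease (median 8.99), against 1.87, 2.98, 2.31, 1.77 and 2.40 CPM in WT. The late values were close to each other and all above WT, yet the change of 2.17 ± 0.74 had an adjusted p of 0.131 in the fit of 35 libraries and of 0.00252 in the fit of the 12 libraries alone, both by edgeR.

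Several matrix genes rose. Of 16 tested genes of the extracellular matrix and urokinase system 4 rose and 0 fell (0.744% and 0.544% of all genes), namely Fn1, Plaur, Spp1 and Lgals3, with a median of 1.44. Spp1 and Lgals3 were also counted in the disease-associated list. The count was 1 with date as a term and 1 with the 12 libraries alone (0.0827% and 0.0476% of all genes). Fn1, encoding fibronectin, ran from 15.8 to 118 CPM in late disease (median 20.3), against 0.181, 0.791, 3.15, 0.693 and 1.98 CPM in WT. No libraries overlapped, and outside late disease 6 the late libraries reached no more than 23.1 CPM. The change was 4.61 ± 0.85 (adjusted p = 0.00621 by edgeR) and 3.90 without late disease 6 (adjusted p = 0.00954). Plaur, the urokinase receptor, ran from 14.1 to 105 CPM (median 33.5) against 6.53, 15.3, 8.44, 9.58 and 9.31 CPM, with late disease 1 below Control 11, and rose by 2.09 ± 0.39 (adjusted p = 0.00621).

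Fn1 is also a gene of monocytes. The 12 monocyte markers summed to 34.1 to 156 CPM in late disease and 16.5 to 29.9 CPM in WT. Of 11 tested 1 rose, Fn1 itself, and 0 fell (0.744% and 0.544% of all genes). Changes were positive in 7 and negative in 4, beside 7830 and 6684 of all genes, and the list's median was 0.72. Ms4a4c stood at 6.71 to 20.8 CPM in late disease and 2.08 to 11.2 CPM in WT, Itga4 at 4.59 to 16.1 and 3.00 to 7.85 CPM, and Chil3 at 0 to 23.6 and 0.0605 to 9.77 CPM. The defining monocyte genes Ly6c2 and Ccr2 stood at 0 to 0.746 and 0.487 to 2.74 CPM in late disease, against 0 to 1.14 and 1.70 to 3.94 CPM in WT, and Ly6c2 was at 0 in 4 late and 2 WT libraries. The 12 markers of border macrophages summed to 166 to 773 CPM in late disease, the highest in late disease 6, and 101 to 332 CPM in WT, of which Stab1 made up 153 to 692 CPM and 88.7 to 321 CPM. Of 11 tested, 0 were called by edgeR, and 6 were higher and 0 lower at an unadjusted p under 0.05 (7.96% and 7.01% of all genes), with a median of 1.93. DESeq2 called 0 and limma 1 higher (2.36% and 1.53% of all genes). Changes were positive in all 11 and negative in 0, beside 7830 and 6684 of all genes. Mrc1, Lyve1 and Cd163 reached at most 4.19, 2.36 and 1.18 CPM in late disease, and 1.95, 0.0600 and 0.504 CPM in WT. Siglec1 stood at 1.95 to 11.5 CPM in late disease and 0 to 2.42 CPM in WT, and Dab2 at 8.365 to 42.0 and 5.86 to 12.7 CPM. F13a1 stood at 0 to 15.7 and 0 to 0.883 CPM, and Ms4a7 at 0.310 to 1.43 and 0 to 0.169 CPM, without overlap for Ms4a7. The part of such cells in the results was not tested.

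Msr1, the scavenger receptor for modified lipoproteins, ran from 9.16 to 95.1 CPM in late disease (median 17.5), against 3.02, 2.31, 5.74, 4.22 and 1.86 CPM in WT, without overlap. It rose by 2.98 ± 0.60 (adjusted p = 0.00867 by edgeR) and by 2.33 without late disease 6 (adjusted p = 0.0195), 1 of 19 scavenger and Fc receptors tested, with 0 lower (0.744% and 0.544% of all genes). In the lipid list 2 of 20 tested genes rose and 0 fell, beside the same shares of all genes, with a median of 1.05. The count was 1 without late disease 6 and 1 against WT of 2 weeks alone (0.47% and 0.452% of all genes). Of the 2 called genes Apoe, also counted in the disease-associated list, was the first. Apoc4, its neighbour on chromosome 7, was called on 74 late counts, 41 of them from late disease 6, against 1 WT count, so that no fold is given. The Apoc4 call was lost without late disease 2, 3, 4 or 6 or Control 10, 11, 13 or 14. Nceh1, a cholesteryl ester hydrolase, Scd2, a fatty acid desaturase, and Lrp1, an endocytic receptor for APOE, rose by 1.08 ± 0.22, 1.05 ± 0.21 and 0.76 ± 0.16 (adjusted p of 0.00867, 0.00811 and 0.0131 by edgeR), and were chosen after their values were seen. Lrp1 lost its call without Control 11. Cholesterol synthesis had 0 of 24 genes called by edgeR, DESeq2 or limma, and 2 higher and 3 lower at an unadjusted p under 0.05 (7.96% and 7.01% of all genes).

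Immediate early genes rose in few members. Of 27 tested 3 rose and 1 fell (0.744% and 0.544% of all genes), with a median of 0.68 that became 0.17 without late disease 6. With date as a term or with the 12 libraries alone 0 were called in either direction. Those fits called 0.0827% and 0.0476% of all genes higher and 0 lower. Ier3, which limits apoptosis and NF-kB signalling, had 12.96, 8.16, 46.5, 6.37, 10.5, 133 and 8.47 CPM in late disease 1 to 7, against 3.63, 4.63, 4.28, 1.70 and 3.06 CPM in WT. Every late value exceeded every WT value, with late disease 3 and 6 far above the others. It rose by 3.23 ± 0.63 (adjusted p = 0.00806 by edgeR) and by 2.10 without late disease 6 (adjusted p = 0.0195). Egr1, a zinc finger factor, rose by 1.86 ± 0.44 (adjusted p = 0.0276), a call lost without late disease 3 or Control 10 or 11. Ier2 rose by 1.73 ± 0.40 (adjusted p = 0.0227) and by 1.11 without late disease 6, where the call ended, as it did without late disease 3 or Control 10, 12 or 14. Klf2, a factor that restrains inflammatory genes in myeloid cells, ran from 8.26 to 28.0 CPM in late disease (median 17.0), against 35.6, 38.1, 112, 62.5 and 32.7 CPM in WT, without overlap. It fell by 1.54 (SE 0.31; adjusted p = 0.00981), a call lost without Control 12, the highest WT library, at an adjusted p of 0.0549.

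A pair of heat-shock co-chaperones fell. Of 13 tested 0 rose and 2 fell (0.744% and 0.544% of all genes), and 7 were lower and 0 higher at an unadjusted p under 0.05 (7.01% and 7.96%), with a median of −0.27. Dnajb1, an HSP70 co-chaperone, ran from 39.9 to 68.3 CPM in late disease (median 61.2), against 90.4, 87.6, 95.9, 104 and 81.5 CPM in WT, without overlap, and fell by 0.62 (SE 0.13; adjusted p = 0.0115 by edgeR). Dnaja1, another HSP70 co-chaperone, ran from 70.1 to 134 CPM (median 94.5) against 167, 200, 197, 184 and 124 CPM. Control 14, the WT library of 6 weeks, lay within the late range. Dnaja1 fell by 0.84 (SE 0.16; adjusted p = 0.00806), and both genes were called in all 12 fits that left out a library. With date as a term or with the 12 libraries alone 0 heat-shock genes were called, and 0 of all genes were called lower. Against the 6-week WT library alone the list's median was −0.03. Among 22 genes of the unfolded protein response, with a median of 0.02, 0 were called by edgeR, DESeq2 or limma, and 2 were higher and 3 lower at an unadjusted p under 0.05. Among 28 proteasome genes, with a median of −0.05, 0 were called by these 3 tools, and 0 were higher and 5 lower unadjusted.

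Some ribosomal protein genes rose, by small amounts. Of 85 tested 10 rose and 0 fell (0.744% and 0.544% of all genes), and 57 were higher and 1 lower at an unadjusted p under 0.05 (7.96% and 7.01%). DESeq2 called 32 higher, limma 36 and the fit against WT of 2 weeks alone 14 (2.36%, 1.53% and 0.452% of all genes). The fits with date as a term and of the 12 libraries alone called 0 (0.0827% and 0.0476% of all genes). The median of 0.48 became 0.30 without late disease 6, which left 4 calls, all higher (0.47% of all genes). Rpl10a, a protein of the large subunit, ran from 57.3 to 135 CPM in late disease (median 73.0), against 43.8, 55.4, 43.4, 42.0 and 42.9 CPM in WT, with late disease 5 just above Control 11. It rose by 0.80 ± 0.15 (adjusted p = 0.00721 by edgeR) and Rps28, of the small subunit, by 0.85 ± 0.18 (adjusted p = 0.0135), both in all 12 fits. Rps21 (0.90 ± 0.20, adjusted p = 0.0188) and Rpl30 (0.68 ± 0.16, adjusted p = 0.0245) lost their calls without Control 10, 11, 12 or 13, and Rpl30 also without late disease 3. These genes have many processed copies, among which reads are shared by estimation. Nuclear genes of the respiratory chain had 0 of 73 called by edgeR, 1 by DESeq2 and 1 by limma, and 5 were higher and 0 lower at an unadjusted p under 0.05. Their median was 0.10. The 13 mitochondrially encoded mRNAs had 0 called by edgeR, 1 by DESeq2 and 1 by limma, 4 higher and 0 lower, and a median of 0.39.

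Of the other lists, cell division had 0 of 42 genes called by edgeR, DESeq2 or limma. At an unadjusted p under 0.05, 2 were higher and 0 lower (7.96% and 7.01% of all genes). Changes were positive in 40 of the 42, beside 7830 of all 14514 genes, and the list's median was 0.50. Mki67, the Ki-67 antigen, ran from 0.930 to 14.2 CPM in late disease (median 3.54), against 0.846, 4.26, 4.00, 1.95 and 9.25 CPM in WT, fully overlapping. The TGF-beta pathway had 0 of 16 by the 3 tools, with 3 higher and 1 lower unadjusted. Genes of inherited ALS and frontotemporal dementia had 0 of 20 by edgeR and limma and 1 higher by DESeq2 (2.36% of all genes), with 5 higher and 1 lower unadjusted and a median of 0.16. Single members rose in the lists of growth factors (Csf1 of 13 tested), lysosome (Ctsb and Gusb of 31), glycolysis and hypoxia (Hif1a of 22), antioxidant and iron genes (Gpx3 of 21), glucocorticoid and clock genes (Mt1 of 20) and p53 and apoptosis (Bcl2l1 of 19), and 0 fell in these 6. Csf1, Ctsb and Hif1a were also counted in the disease-associated list. Over all genes 0.744% rose and 0.544% fell. Tuba1a, a tubulin, was the 1 of 24 cytoskeletal genes to fall, by 0.74 (SE 0.19; adjusted p = 0.0374 by edgeR), a call lost without late disease 3 or Control 11, 12, 13 or 14. Bcl2l1, which encodes the survival factor BCL-XL, ran from 151 to 197 CPM in late disease (median 179), against 120, 107, 138, 151 and 140 CPM in WT. The margin between late disease 7 at 150.7 CPM and Control 13 at 150.5 CPM was small, yet the rise of 0.47 ± 0.10 (adjusted p = 0.0108) held in all 12 fits. Gusb, a lysosomal glycosidase, rose by 0.36 ± 0.08 (adjusted p = 0.0266), lost without late disease 2, 3, 4 or 6 or Control 10, 12, 13 or 14. Gpx3 and Mt1, a glutathione peroxidase and a metallothionein, stood at 73.3 and 342 CPM in late disease 6, against at most 3.93 and 84.3 CPM in the other late libraries, and their changes of 4.74 and 1.48 became 2.43 and 0.65 without it, with adjusted p of 0.195 and 0.177. They were also lost without late disease 3 or any WT library.

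**Figure D4:**
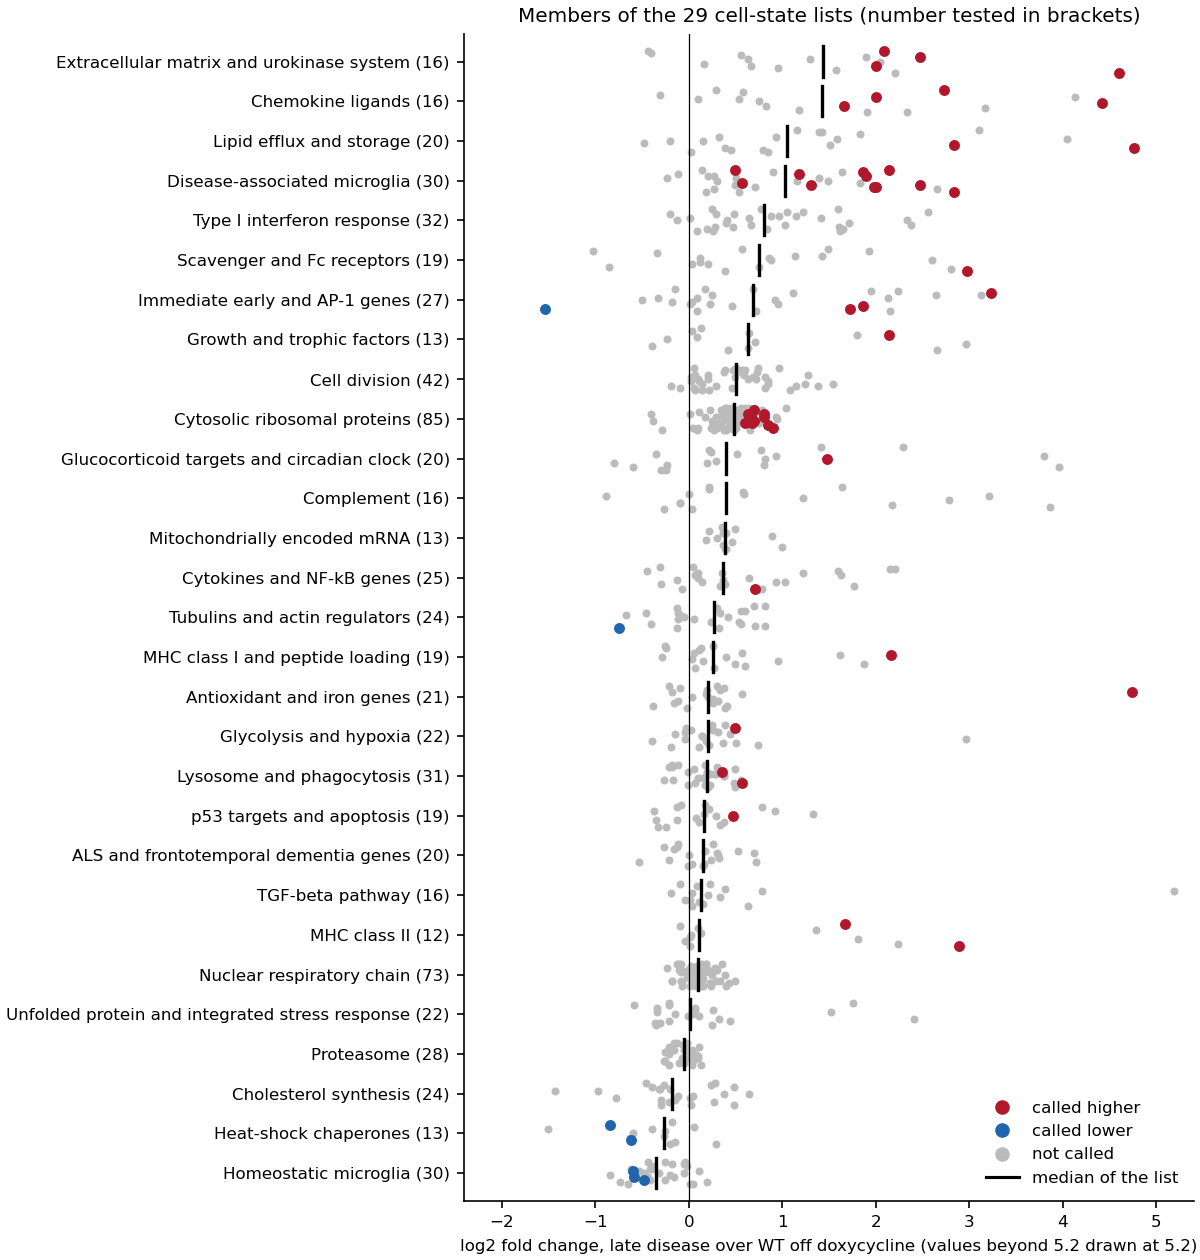
Log2 fold change of late disease over WT for the tested members of the 29 cell-state lists, ordered by their medians (black bars). Red members are called higher, blue members lower and grey members not called, and the number tested stands in brackets. The matrix, chemokine, lipid and disease-associated lists have medians of 1.44, 1.42, 1.05 and 1.03, and the homeostatic list stands at the bottom at −0.35.

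Markers of the other cell types passed no test by edgeR or DESeq2 in neutrophils (0 of 12 tested), T and NK cells (0 of 1), B cells (0 of 3), oligodendrocytes (0 of 8), astrocytes (0 of 7), neurons (0 of 4), endothelium (0 of 5), mural cells and fibroblasts (0 of 2) and erythroid cells (0 of 5), nor by limma. At an unadjusted p under 0.05 the neutrophil, T and NK, B and astrocyte lists had 1 higher each, oligodendrocytes 1 lower, mural cells 2 lower and erythroid cells 5 lower. Over all genes 7.96% were higher and 7.01% lower. Erythroid markers summed to at most 3.81 CPM in late disease, against 137 CPM in the highest WT library, Control 13. Neutrophil markers summed to 680 to 1073 CPM in late disease and 533 to 859 CPM in WT. Most of it was Csf3r at 680 to 861 and 533 to 780 CPM, and Mpo was at 0 in all 12 libraries. Other neutrophil markers varied between libraries. Ngp stood at 0 to 105 CPM in late disease and 0 to 51.8 CPM in WT, and S100a8 at 0 to 72.1 and 0 to 36.9 CPM. The mean log2 level of the 12 tested was 3.62 and 4.13 in late disease 3 and 4. In Controls 12 to 14 it was 4.12, 2.13 and 2.86. It was 1.26 in late disease 6, and −0.07 to 0.17 in late disease 1, 2, 5 and 7 and Controls 10 and 11. The part of neutrophils in the results was not tested. Astrocyte markers summed to 178 to 2733 CPM in late disease and 1343 to 1766 CPM in WT, almost all of it Slc1a3, a glutamate transporter, at 170 to 2725 and 1339 to 1757 CPM. Oligodendrocyte markers summed to 2084 to 5200 CPM in late disease and 1713 to 3357 CPM in WT, most of it Trf, transferrin, at 1900 to 5054 and 1546 to 3144 CPM. B cell markers summed to 73.4 to 439 CPM in late disease and 299 to 511 CPM in WT, of which Ighm held 58.7 to 410 CPM and 283 to 466.1 CPM, and the sums of the endothelial, mural and T and NK markers reached at most 45.7, 4.93 and 1.34 CPM.

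Genes outside the lists included many that were called in all 12 fits. Ralgds, an exchange factor for the GTPase Ral, ran from 11.7 to 43.3 CPM in late disease (median 19.9), against 9.25, 5.42, 11.1, 10.7 and 7.27 CPM in WT, and rose by 1.57 ± 0.28 (adjusted p = 0.00551 by edgeR). Late disease 2 lay just above Control 12. Myo5a, an actin motor that carries vesicles, ran from 31.8 to 51.9 CPM (median 36.9) against 13.4, 14.9, 18.1, 21.2 and 20.4 CPM, a clear gap, and rose by 1.19 ± 0.22 (adjusted p = 0.00621). Dna2, a helicase and nuclease of DNA repair, ran from 12.9 to 72.3 CPM (median 19.8) against 11.3, 4.69, 8.83, 9.08 and 3.72 CPM and rose by 2.09 ± 0.42 (adjusted p = 0.00918). Slc36a4, an amino acid transporter, rose by 0.97 ± 0.17 to 45.0 ± 10.9 CPM, against 22.8 ± 5.34 CPM in WT (adjusted p = 0.00486). All 4 stayed called in each of the 12 fits, as did Mfsd12, a lysosomal cysteine transporter (1.12 ± 0.22), Cpd, a carboxypeptidase (0.97 ± 0.20), Mroh1 (1.10 ± 0.23) and Armcx5 (0.98 ± 0.20). Tmem154 rose by 2.43 ± 0.57 (adjusted p = 0.0245) and by 1.33 without late disease 6, where the call ended, as it did without Control 10, 12 or 13.

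Dapp1, an adaptor that binds phosphoinositides downstream of PI3-kinase, had the smallest adjusted p of the genes that fell. It ran from 101 to 188 CPM in late disease (median 159), against 261, 276, 220, 250 and 208 CPM in WT. Every WT library lay above every late library. The log2 change was −0.70 ± 0.11 (adjusted p = 0.00250 by edgeR), in all 12 fits. Chst7, a sulfotransferase of chondroitin sulfate, ran from 23.6 to 65.7 CPM (median 52.1) against 92.2, 87.4, 77.8, 86.1 and 97.1 CPM and fell by 0.80 (SE 0.17; adjusted p = 0.0145). Pdlim4, an actin-binding protein, fell by 0.79 (SE 0.15; adjusted p = 0.00717) and Akirin2, a nuclear protein needed for inflammatory gene induction, by 0.70 (SE 0.15; adjusted p = 0.0117), each without overlap and in all 12 fits. The other genes named by the same rule were Zfp874a (−1.30 ± 0.29), Exog, a mitochondrial nuclease (−1.07 ± 0.26), Etv1, an ETS factor (−0.83 ± 0.21), Prpsap2 (−0.73 ± 0.17) and Ywhah, a 14-3-3 protein (−0.72 ± 0.17), with adjusted p from 0.0175 to 0.0374. The call of Zfp874a ended without Control 11 or 12, that of Exog without Control 10 or 12 or late disease 3, and that of Ywhah without Control 11 or late disease 3. The call of Prpsap2 ended without Control 11, 12 or 13 or late disease 3, and that of Etv1 without Control 10, 11, 12 or 14 or late disease 3 or 6.

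Among the covariates tried, date code moved the count of calls most. With date as a further term 12 genes were called (0.0827%), all higher, 10 of them among the 187, and all 187 kept their direction in that fit. These were Csf1, Axl, Cd74, Lgals3, Myo5a, Ralgds, Dna2, Mical1, Gm49339 and B430306N03Rik, with Tcirg1 and Siglecf in addition. Csf1 changed by 2.36 (adjusted p = 0.00356 by edgeR), Axl by 2.17 (0.0393), Cd74 by 1.98 (0.0275) and Lgals3 by 2.92 (0.0128), while Tmem119 and Selplg had −0.55 and −0.63 with adjusted p of 0.112 and 0.0572. Tcirg1, a subunit of the lysosomal proton pump, changed by 0.84 (0.0427), against 0.56 (0.0985) without the date term, and Siglecf, an inhibitory sialic acid receptor, by 1.14 (0.0427), against 0.74 (0.0745). The late libraries of codes 1019 and 1102 against the 5 WT libraries of the same codes, an alternative added after the data were seen, gave 31 calls, 30 of them among the 187, and 3 calls with the date term.

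Within code 1019, late disease 1 against the 4 WT libraries gave changes of 1.36 for Csf1, 1.55 for Axl, 0.39 for Apoe, 1.45 for Cd74, −0.71 for Tmem119 and −0.81 for Selplg. Within code 1102, the 3 late libraries against Control 14 gave 2.16, 2.35, 3.30, 1.96, −0.46 and −0.52 for the same 6 genes. The signs were the same in both codes, and Apoe was the gene whose size differed most. Against Control 14 alone, the only WT library of the same 6 weeks, the 7 late libraries gave 0 calls by edgeR and 463 genes at an unadjusted p under 0.05, and 186 of the 187 genes kept their direction.

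**Figure D5:**
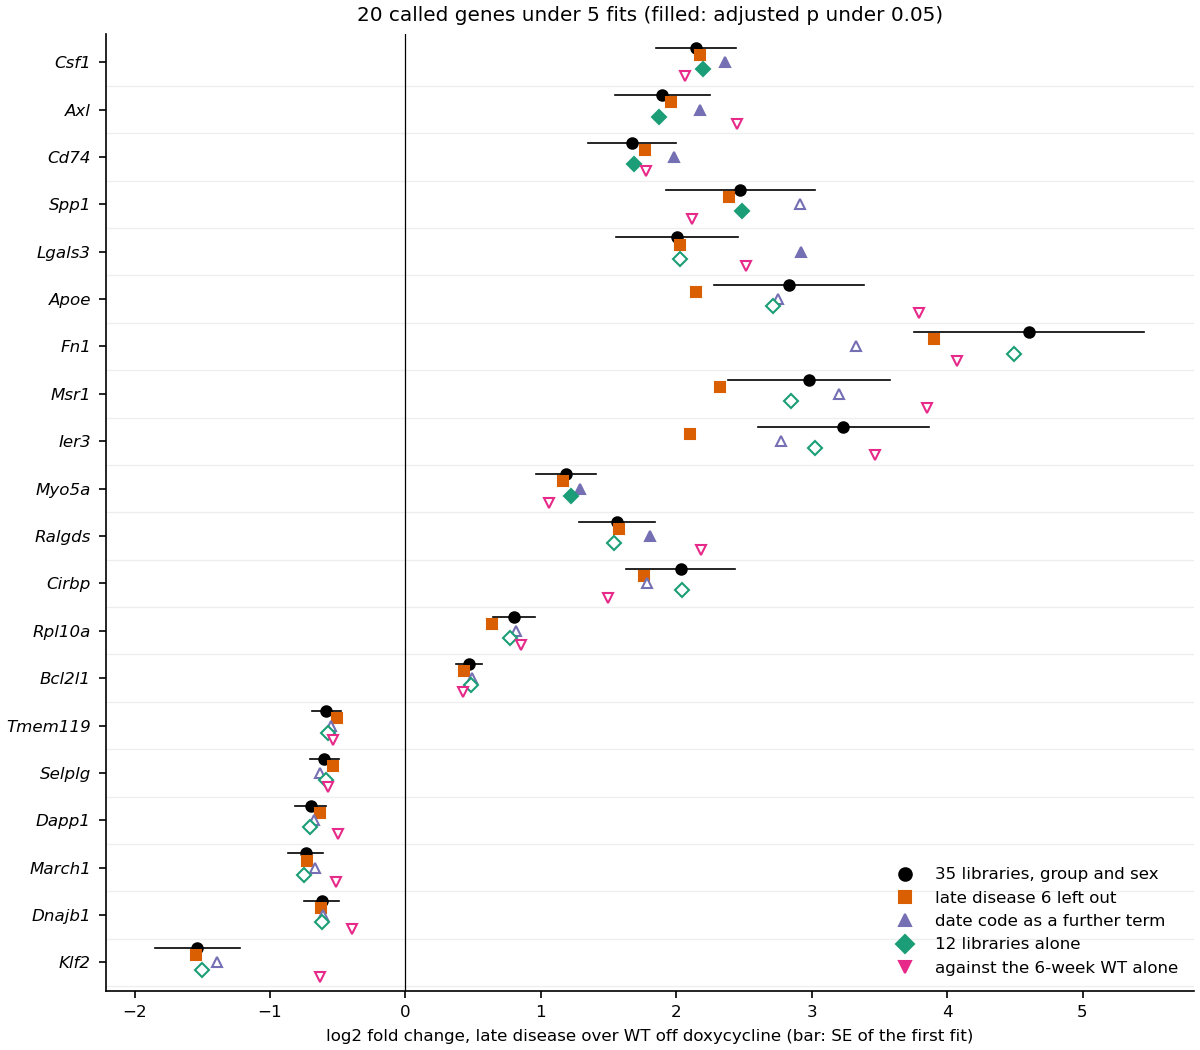
Log2 fold change of late disease over WT for 20 called genes (rows) in 5 fits, with filled symbols where the adjusted p is under 0.05 and a bar for the SE of the first fit. Signs are the same in all 5 fits. Csf1, Axl, Cd74 and Myo5a are filled in 4 of the 5, and no gene is filled against the single 6-week WT library.

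The sexes were compared by an interaction term, which called 0 of 16151 genes by edgeR, with 898 (5.56%) at an unadjusted p under 0.05 and a smallest adjusted p of 0.88. In fits split by sex, 3 genes were called in females (0.0186%, all higher) and 0 in males, where 1014 and 2242 genes had an unadjusted p under 0.05. Since late males and females came from different date codes, this does not separate sex from date.

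The other groups of the series, which share the fit but mostly have other date codes, give a scale for some of the named genes, without a test. Csf1 averaged 40.3 ± 17.0 CPM in early disease, 86.4 ± 27.0 CPM in recovery, 14.1 ± 5.31 CPM in rNLS8 mice on doxycycline and 17.0 ± 7.40 CPM in WT mice returned to it (SD, n = 7, 7, 6 and 3), beside 105 ± 29.6 CPM in late disease and 24.8 ± 8.36 CPM in WT without it. Tmem119 averaged 6502 ± 669, 7058 ± 727, 8635 ± 742 and 8680 ± 807 CPM in the same 4 groups, beside 4924 ± 988 and 7442 ± 535 CPM. For both genes the means of early disease and recovery lay between those of late disease and WT without doxycycline, and the rNLS8 mice kept on doxycycline and the WT mice returned to it lay beyond WT without it, away from late disease. Axl followed this order, but other named genes did not. Spp1 averaged 747 CPM in recovery and 61.6 CPM in early disease, beside 492 CPM in late disease and 88.6 CPM in WT without doxycycline. Cd74 averaged 373 CPM in recovery, beside 253 CPM in late disease. Siglech averaged 1337 CPM in rNLS8 mice on doxycycline and 1400 CPM in WT mice returned to it, both below late disease at 1552 CPM.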

How the data were processed

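RNA of sorted spinal cord microglia had been amplified and sequenced as paired-end, unstranded libraries, per the labels' protocols. The authors deposited estimated counts per gene from RSEM on mm10, per the submitters' processing notes, which also name DESeq2, with no versions given, and they deposited TPM values beside them. Of 45706 genes, 563 carried no symbol and at most 0.146% of a library's counts, and 84.67% of the estimated counts were whole within 1e-06.

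The deposited estimated counts were rounded, filtered with filterByExpr by group and scaled by TMM. Group and sex were fitted over 35 libraries in 6 groups with edgeR 4.0.16 in R 4.3.3 (quasi-likelihood F test, 28 residual degrees of freedom), and a call required p under 0.05 after Benjamini-Hochberg adjustment over 14514 genes. DESeq2 1.42.0 on the counts and limma 3.58.1 on log2(TPM + 1) of the deposited TPM were alternatives. The fit was tested on simulated counts first. Replicates differed well beyond counting noise, with chi-square per degree of freedom from 19.59 to 204.69 over genes with at least 20 summed counts, so all were kept. The series text counts the libraries as mice, and pooling is not stated. The p-values of the main fit rest on a spread between libraries that was estimated over all 35 libraries in 6 groups. They do not rest on the spread of the compared libraries alone.

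Gene lists (29 of cell states and 11 of cell markers), members, tests and 20 alternatives were chosen with earlier results of these data known, and 3 more were added after the data were seen. Named genes were, for each list and direction, up to 4 called genes with the smallest p, the 10 called genes per direction outside the lists with the largest change, no overlap between groups and a mean of at least 10 CPM in the higher group, and 12 genes given whatever their result. Members of lists with no call, and symbols that are clone names, were not named by this rule, and genes outside it are said to be chosen after their values were seen. Promoters came from RefSeq on GRCm38.p6. The sex in the labels and in the design table differed for 2 libraries, none of them among the 12.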

Additional observations from a re-analysis of the deposited data

Results flagged for a closer look

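In 172 groups of named genes, the highest or lowest library on the log2(CPM + 0.5) scale stood apart from the others of its group by Dixon's 95% criterion 30 times. A chance rate of about 1 in 20 would hold for independent groups. It does not apply here, because the genes share the same 12 libraries and most were named for their values. The 30 are a description. Of these, 16 concerned late disease 6, 5 late disease 1 and 5 Control 11. All values are in CPM.

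Late disease 6 was the low library for Tmem119 (2987), P2ry12 (1687), Cx3cr1 (1156), H2-Aa (0.834), Itgax (5.49), Chst7 (23.6) and Ywhah (381). It was the high library for the matrix and lipid genes Fn1 (118) and Apoc4 (2.85), for the stress and antioxidant genes Mt1 (342) and Gpx3 (73.3), for the lysosomal ATPase gene Atp13a2 (585), and for Tmem154 (154), Pik3ip1 (883), Adamtsl4 (411) and Ms4a4a (118). Pik3ip1, an inhibitor of PI3-kinase, and Adamtsl4, a secreted matrix protein, had log2 changes of 4.00 and 4.97 with all libraries and of 1.12 and 1.15 without late disease 6 (adjusted p of 0.352 and 0.460 by edgeR), and both calls also ended without late disease 3 or any WT library. Ms4a4a had 1704 of its 1735 late counts in late disease 6.

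Late disease 1 was the high library for Tardbp (149) and the low library for Tlr2 (358), Dnajb1 (39.9), Ctsb (4334) and Gusb (472). Late disease 3 was low for March1 (97.6).

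Control 11 was the low WT library for Mfsd12 (22.2), Cpd (33.7), Lrp1 (240) and Sidt2 (60.9) and the high one for Rpl10a (55.4). Control 12 was high for Apoc4 (0.0563), Control 13 for Ms4a4a (0.126), both near 0, and Control 14 for Rps21 (17.7).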

How the results depend on the processing

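Against 187 genes called (108 higher, 79 lower), leaving out each library in turn gave 78 to 291 calls, 47 to 190 higher and 23 to 129 lower. Calls (higher, lower) were 6 (6, 0) with the 12 libraries alone, 12 (12, 0) with date as a term, 27 (19, 8) with that term and without late disease 6, 31 (17, 14) for late libraries of codes 1019 and 1102, 3 (3, 0) for these with the date term, 121 (114, 7) within code 1019, 0 (0, 0) within code 1102, 3 (3, 0) within females, 0 (0, 0) within males and 0 (0, 0) against the 6-week WT library alone. DESeq2 gave 529 (343, 186), limma 245 (206, 39), with a pseudocount of 0.1 216 (179, 37) and without a filter 163 (138, 25). The lower calls alone came to 46 with a term for the share of TPM that the table lacks and to 46 without a filter. Separated genes numbered 106 to 189 above and 122 to 206 below when a library was left out. The remaining alternatives (no sex term, the sex of the design table, RLE factors, library totals, a CPM filter, WT of 2 weeks alone) moved none of these 3 counts by over 1.5 times. Counts within a list moved more, and WT of 2 weeks alone gave 5 calls in place of 11 among disease-associated genes, 2 in place of 4 among chemokines and 1 in place of 2 among lipid genes. That fit called 0.452% of all genes higher, against 0.744% in the main fit. All 187 genes kept their direction in these fits wherever they had a value, except 1 against the 6-week WT library and 12 within code 1019. Within code 1019, which has 1 late library assumed to vary like the other groups, Ctsb (−0.32), Hif1a (−0.19), Mt1 (−0.0670) and Gusb (−0.0517) reversed. Uncalled reference genes reversed too: Tardbp with limma (−0.26, −0.27 at the lower pseudocount, −0.26 unfiltered), within females (−0.22) and without late disease 1 (−0.22), Itgam without Control 10 (0.0204), and Trem2 within code 1102 (0.0315). Without 1 library, Tardbp ranged up to 0.28, Itgam down to −0.23 and Mki67 up to 0.82. Mki67 reversed with the TPM share term (−0.48), against the 6-week WT library (−1.26), within codes 1019 (−2.25) and 1102 (−0.89), within females (−0.0197), with shared codes and the date term (−0.47), and without Control 10 (−0.20), Control 13 (−0.0088), late disease 2 (−0.22) or late disease 5 (−0.12). The cause was not tested. No paired analysis was possible because late libraries 1 to 7 and Controls 10 to 14 share no replicate number. Genes near 0 counts in WT, such as Apoc4, Ms4a4a and Cxcl9, are limited by depth.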

Other observations

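A few genes of lysosomal membrane proteins outside the lists were picked because they were called higher in late disease, which says nothing of such genes in general. In the lysosome list 2 of 31 tested genes were called, beside 1.29% of all genes. Slc38a7, an amino acid transporter, changed by 0.84 ± 0.18 (adjusted p = 0.0117 by edgeR), with 65.6 ± 14.7 CPM in late disease and 36.7 ± 13.4 CPM in WT (SD, n = 7 and 5), and Mfsd1 by 0.64 ± 0.14 (adjusted p = 0.0139), with 383 ± 104 CPM and 248.6 ± 22.1 CPM. Tpcn2, a lysosomal cation channel, changed by 0.90 ± 0.22 (adjusted p = 0.0290) and had all 7 late values, 20.7 to 45.7 CPM, above the 5 WT values, 13.3 to 18.2 CPM. Sidt2 changed by 0.65 ± 0.17 (adjusted p = 0.0430) and Atp13a2 by 0.86 ± 0.22 (adjusted p = 0.0424). The Slc38a7 call held in all 12 fits that left out a library. That of Mfsd1 ended without Control 12, and that of Tpcn2 without late disease 6 or Control 10, 11 or 14. Sidt2 lost its call without late disease 3 or 6 or Control 11, 12, 13 or 14, and Atp13a2 without late disease 3 or any WT library.

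The following 4 genes were also picked for their calls. Cirbp and Rbm3, the cold-inducible RNA-binding proteins, were higher, and Cirbp had 126, 52.95, 234, 75.8, 37.0, 236 and 33.4 CPM in late disease 1 to 7, against 31.9, 33.5, 17.1, 17.7 and 37.8 CPM in Controls 10 to 14. The libraries of late disease 5 and 7 lay within the WT range. The changes were 2.03 ± 0.40 for Cirbp (adjusted p = 0.00825 by edgeR, in all 12 fits) and 1.39 ± 0.31 for Rbm3 (adjusted p = 0.0187, lost without late disease 3 or Control 11, 12 or 13). The splicing regulators Tra2b and Srsf10 were lower, at 107 ± 16.4 and 69.3 ± 16.1 CPM in late disease, against 167 ± 13.3 and 105 ± 6.43 CPM in WT, with every late value below every WT value. They changed by −0.62 ± 0.14 and −0.60 ± 0.14 (adjusted p of 0.0185 and 0.0192). Both calls ended without Control 11 or late disease 3, and that of Tra2b also without Control 10.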
